A study of Danio rerio with 9 samples.

Results

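Apolipoproteins are the protein part of lipoprotein particles, and 10 of their genes were compared between male and female zebrafish kidneys. The genes were *apoea*, *apoeb*, *apoa1a*, *apoa1b*, *apoa2*, *apoa4a*, *apoba*, *apobb.1*, *apoc1* and *apoc2*. They were found by symbol among the 30628 genes of the deposited table, and each symbol matched 1 gene. RNA was sequenced from kidneys of 12-month-old WIK fish, a laboratory strain, in 4 male and 5 female libraries, all labelled as wild type (WT). The male libraries are called M1, M2, pkd1M1 and pkd1M4 here and the female libraries F1, F2, F3, F4 and F6, after the column names. The names of 2 male columns carry pkd1 beside the abbreviation for wild type, and their labelled sex alone was used. The methods give sets of kidneys per sex and do not say how many fish made a set, so the spread between libraries is the only replicate error.

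Lipoproteins carry lipids through the blood. Apolipoprotein B forms the scaffold of the large particles that leave liver and intestine, the A apolipoproteins belong mainly to high-density lipoproteins, the C apolipoproteins adjust lipolysis and uptake, and apolipoprotein E is the ligand by which receptors of the LDL receptor family take particles up. In mammals most of these proteins come from the liver, apolipoprotein A-IV comes mainly from the intestine, and apolipoprotein E is also made by macrophages. In zebrafish *apoeb* is a widely used marker of microglia, the macrophages of the brain. The zebrafish kidney holds blood-forming tissue between its tubules, so RNA of both is in each library.

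Estimated counts per library summed to between 24902978 and 52986838 in males and between 30714070 and 38758188 in females. Levels below are CPM, counts scaled to a common total, on library sizes normalized by TMM, a method that sets aside genes with extreme ratios. A count of 0 allows a level of up to 0.0641 to 0.130 CPM in a male library and 0.0684 to 0.1002 CPM in a female library, taking 3 counts as the limit, for counting error only. Of the 22148 genes that passed the filter on low counts, 1448 were called, 771 of them higher and 677 lower in males. A gene was called at an adjusted p under 0.05 in edgeR's quasi-likelihood test and an absolute log2 fold change above 1.5. Markers of the labelled tissue were present. The sum of 7 kidney tubule genes was between 3120 and 3772 CPM in males and between 1097 and 3095 CPM in females, without overlap. Their median log2 fold change was 1.21, and 3 of the 7 were higher in males by the adjusted p alone. The sum of 5 blood-forming genes was between 10543 and 34775 CPM in males and between 18073 and 49543 CPM in females. The part of such tissue differences in the levels below was not tested.

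Of the 10 apolipoprotein genes, *apoeb* was lower in males and was the only one called, 7 had their highest male level in pkd1M4 and their highest female level in F2, *apoea* was level between the sexes, and *apoa4a* was near the limit of counting. The filter kept 9 of the 10, all but *apoa4a*. The call of 1 of 9 stands beside 6.54% of all tested genes called, 3.48% higher and 3.06% lower in males. The genes were chosen with this comparison known, so their fold changes are given as a description and without p-values. The median log2 fold change of the 9 genes was 2.5, against -0.03 over all tested genes, and 7 of the 9 values were above 0. This summary depends on which of pkd1M4 and F2 is kept. Without pkd1M4 the median was -0.08 and 4 of the 9 values were above 0, and without F2 it was 3.29 with 7 above 0. Without both pkd1M4 and F2 the median was 1.16 with 5 above 0.

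**Figure D1:**
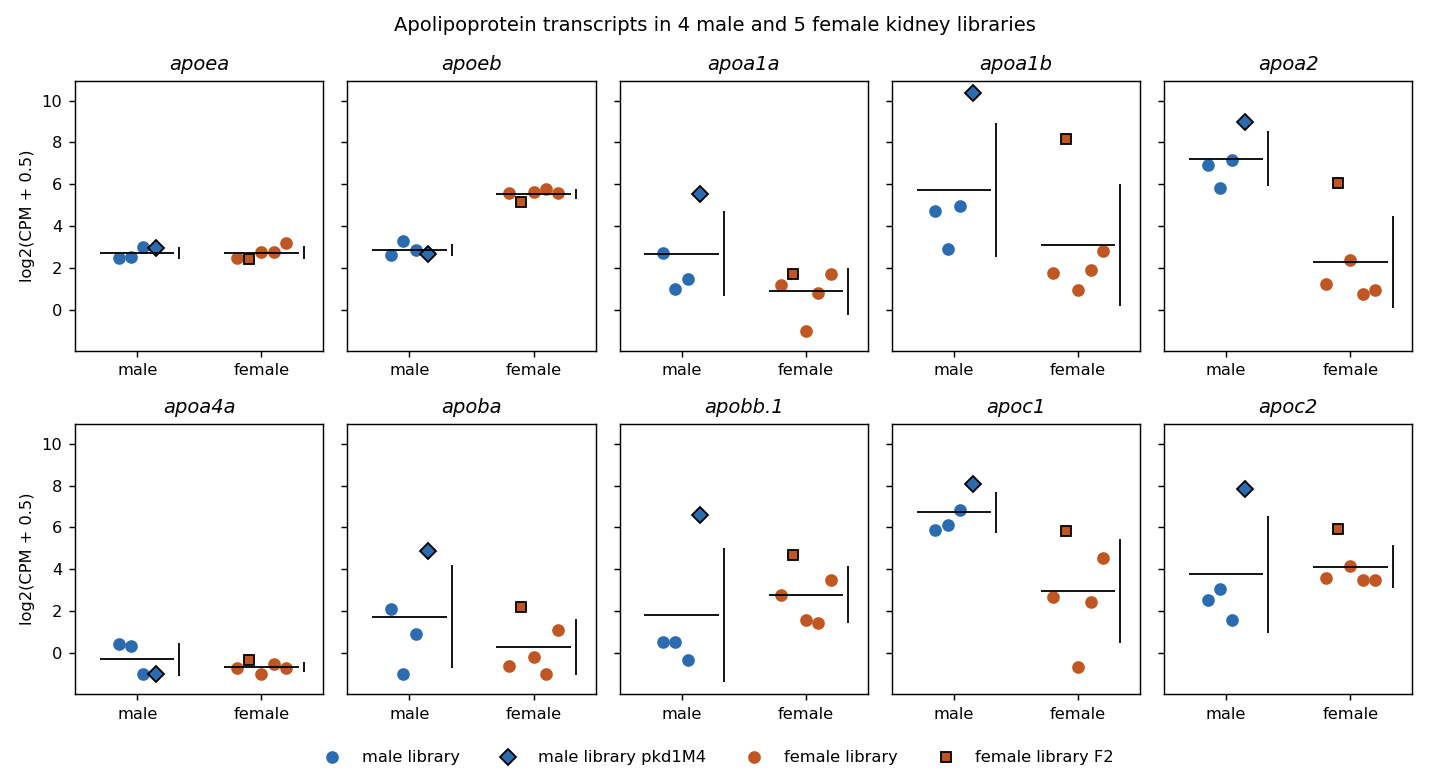
Level of each apolipoprotein gene in each kidney library, as log2(CPM + 0.5), with males left of females; horizontal lines are group means and vertical lines beside the points are 1 SD. The diamond (pkd1M4) and the square (F2) are the highest library of their sex in 7 panels, *apoeb* is separated by sex, and *apoea* lies at the same level in both.

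The E apolipoproteins are 2 paralogs. *apoeb* (ENSDARG00000040295) is listed on chromosome 16 from 23960744 to 23963461. It had 5.64, 9.10, 6.77 and 5.84 CPM in M1, M2, pkd1M1 and pkd1M4, against 47.5, 34.4, 48.9, 54.3 and 47.1 CPM in F1, F2, F3, F4 and F6. The highest male library lay far below the lowest female library, and F2 was the lowest of the females here. These levels rest on 130 to 317 counts in male libraries and 1219 to 2385 counts in female libraries. The means were 6.84 ± 1.59 CPM in males (SD, n = 4) and 46.5 ± 7.34 CPM in females (SD, n = 5). The log2 fold change was -2.76 ± 0.22 (SE), which is a level 6.79-fold higher in females. Whether a male kidney held fewer cells that express *apoeb*, or less of its RNA in each cell, cannot be told apart in such bulk libraries. Across the 17 other settings that were tried, the log2 fold change of *apoeb* lay between -2.93 and -2.47. The call held in 16 of them. It was lost only when M1, M2, F1 and F2 were fitted alone without the replicate number as a block.

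*apoea* (ENSDARG00000102004) is listed on chromosome 19 from 10855158 to 10859694. Its levels were 4.99, 5.17, 7.50 and 7.17 CPM in the male libraries, against 5.04, 4.79, 6.35, 6.18 and 8.72 CPM in the female libraries. The groups overlapped over almost their whole range. Both sexes averaged 6.21 CPM, with an SD of 1.31 in males and 1.56 in females, and the log2 fold change was 0.00 ± 0.31 (SE). Over the 17 other settings the log2 fold change of *apoea* stayed between -0.29 and 0.15.

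The balance of the pair differed between the sexes along with *apoeb*. *apoea* made up 46.9%, 36.2%, 52.5% and 55.1% of the summed estimated counts of both paralogs in the male libraries, against 9.58%, 12.2%, 11.5%, 10.2% and 15.6% in the female libraries. The mean share was 47.7 ± 8.39% in males (SD, n = 4) and 11.8 ± 2.36% in females (SD, n = 5), with no overlap. These are shares of estimated counts, and whether these were scaled by transcript length is not settled by the header and the methods. Kallisto also divides reads that paralogs share by estimation.

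Part of a macrophage list was lower in males along with *apoeb*. Of its 19 tested genes, 5 were called, all lower in males: *grn1*, *mfap4*, *csf1ra*, *ctss2.2* and *irf8*, where 3.06% of all tested genes were called lower. By the adjusted p alone 10 were lower and 1 was higher, *slc7a7*, an amino acid transporter (log2 fold change 0.91, adjusted p = 0.034, edgeR). *marco* had -0.05 and *lgals3a* 0.26 on the log2 scale, and neither passed the test. *grn1*, a granulin gene, had a log2 fold change of -6.15 (adjusted p = 0.000231, edgeR), *ctss2.2*, a cathepsin S gene, -1.95 (adjusted p = 0.00109), and *csf1ra*, the receptor for macrophage colony-stimulating factor, -2.19 (adjusted p = 0.0045). The list's median log2 fold change was -1.14, and its summed level was between 1194 and 1982 CPM in males and between 4643 and 7413 CPM in females. With *grn1*, its strongest call, taken out after the values were seen, the sum was between 1177 and 1904 CPM in males and between 2557 and 4234 CPM in females. None of its 19 genes was at 0 in any library. The part of these cells in the *apoeb* difference was not tested.

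The level of *apoeb* was also set against 7 defining macrophage markers within each library. Its ratio to *mpeg1.1*, *marco*, *c1qa*, *c1qb* and *c1qc* was lower in every male than in every female library. For *c1qc*, a subunit of the complement component C1q, the ratio ran from 0.0998 to 0.167 in males and from 0.333 to 0.949 in females. For *csf1ra* it ran from 0.760 to 1.64 in males and from 0.983 to 3.63 in females, and for *csf1ra* and *mfap4* the sexes overlapped. *marco* itself had a log2 fold change of -0.05, so its ratio repeats the difference in *apoeb*. The ratio of *apoeb* to *grn1*, which is not among the 7, was higher in every male than in every female library, from 0.0957 to 0.34 in males and from 0.0109 to 0.0226 in females. Of the 7 ratios 5 were thus lower in males without overlap and 2 overlapped. The 5 markers with the lower ratios were not themselves called, while *csf1ra* and *mfap4* were. By the adjusted p alone in edgeR, *mpeg1.1* (log2 fold change -1.27, adjusted p = 0.0244), *c1qb* (-1.135, 0.00484) and *c1qc* (-0.74, 0.0413) were lower in males. Each of these was lower in every male than in every female library. *c1qa* (-0.68) and *marco* did not pass the adjusted p. Among the ratios read, only that to *grn1*, the strongest call of the list, went the other way. Ratios to the rest of the macrophage list, with the called *ctss2.2* and *irf8*, are not given.

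The A apolipoproteins showed the 2 libraries that stand apart. *apoa1b* (ENSDARG00000101324) encodes apolipoprotein A-I, the main protein of high-density lipoproteins, and is listed on chromosome 15 from 102925 to 108414. It had 25.9, 7.07, 30.5 and 1300.2 CPM in M1, M2, pkd1M1 and pkd1M4, against 2.81, 288, 1.41, 3.24 and 6.38 CPM in F1, F2, F3, F4 and F6. pkd1M4 was 50.2 times the median of the other males and F2 was 95.3 times the median of the other females. The sexes overlapped, and the log2 fold change was 2.5 ± 1.82 (SE) and was not called. With pkd1M4 and F2 both left out it was 2.60 ± 0.62 and was called, and every remaining male library was above every remaining female library. With pkd1M4 alone left out it was -1.51 and with F2 alone left out 6.64. The fold change of *apoa1b* thus moved far when 1 of these libraries was left out. With both left out it stayed close, and its SE was smaller.

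*apoa1a*, its paralog on chromosome 5 from 37978501 to 37981521, had 5.94, 1.47, 2.29 and 45.7 CPM in males, against 1.73, 2.79, 0, 1.25 and 2.74 CPM in females. pkd1M4 alone was high, at 20.0 times the median of the other males, and F2 was at 1.87 times that of the other females. The log2 fold change of 3.02 ± 1.21 (SE) was not called, and it was 0.92 without pkd1M4. DESeq2's Wald test called *apoa1a* higher in males, at 3.05 on the log2 scale. *apoa1a* made up 11.5 ± 7.52% of the estimated counts of the *apoa1a* and *apoa1b* pair in males and 19.4 ± 17.7% in females (SD, n = 4 and 5), with overlap.

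*apoa2* (ENSDARG00000015866), for apolipoprotein A-II of high-density lipoproteins, lies on chromosome 16 from 23978978 to 23980354. Its levels were 119, 55.7, 142 and 501 CPM in the male libraries, against 1.81, 67.0, 4.63, 1.18 and 1.44 CPM in the female libraries. F2 was above M2 and was the only female library that overlapped the males. The log2 fold change was 3.75 ± 1.27 (SE) and was not called. Without F2 it was 6.49 and was called, and without both libraries it was 5.52 ± 0.58 and was called. In the remaining libraries the mean was 106 ± 44.9 CPM in 3 males and 2.26 ± 1.60 CPM in 4 females (SD). DESeq2's Wald test and the filter of at least 10 counts in every library also called *apoa2* higher in males, and its log2 fold change was above 0 in all 17 other settings, between 1.35 and 6.49.

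*apoa4a*, for apolipoprotein A-IV of chylomicrons, is listed on chromosome 19 from 10845953 to 10850834, beside *apoea*. It had 19, 23, 0 and 0 counts in the male libraries, against 4, 10, 0, 8 and 3 counts in the female libraries. It was thus at 0 in pkd1M4, the library highest in *apoa1b*, and no fold change is given because it did not pass the filter.

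The B apolipoproteins are the structural proteins of very-low-density and low-density lipoproteins. *apobb.1*, on chromosome 20 from 31269778 to 31285980, had 0.954, 0.933, 0.278 and 94.6 CPM in males, against 6.32, 25.1, 2.5, 2.14 and 10.8 CPM in females. pkd1M4 was 101.3 times the median of the other males, and those other males were below every female library. The log2 fold change of 1.37 ± 1.43 (SE) was not called. It turned to -3.71 without pkd1M4, where *apobb.1* was called lower in males, and was -2.93 ± 0.81 without both libraries, where it was not called. *apoba*, on chromosome 17 from 30704068 to 30727966, had 3.82, 0, 1.35 and 29.0 CPM in males, against 0.139, 4.12, 0.363, 0 and 1.60 CPM in females. The sexes overlapped for *apoba* with and without the 2 libraries, and its log2 fold change was 2.78 ± 1.63 (SE) with all 9 and 1.68 ± 1.83 without both.

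The C apolipoproteins act on lipolysis and uptake. *apoc1*, for an apolipoprotein that slows receptor uptake of particles in mammals, lies on chromosome 16 from 23972126 to 23973721. It had 57.2, 69.2, 112 and 264 CPM in males, against 5.93, 56.6, 0.121, 4.85 and 22.4 CPM in females. Every male library was above every female library, though F2 lay just under M1. The log2 fold change was 2.81 ± 1.1 (SE), was not called, and was above 0 in each of the 16 other settings in which the gene was tested, between 1.02 and 3.93. *apoc1* and *apoeb* were the only 2 of the 10 genes whose libraries did not overlap between the sexes, 1 in each direction, where 16.5% of all tested genes did not overlap, 8.42% higher and 8.06% lower in males.

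*apoc2*, for the cofactor that lipoprotein lipase needs, is on chromosome 16 from 23984179 to 23994642. Its levels were 5.33, 7.77, 2.5 and 225 CPM in the male libraries, against 11.4, 59.7, 17.3, 10.7 and 10.5 CPM in the female libraries. pkd1M4 was 42.3 times the median of the other males and F2 was 5.40 times that of the other females. The other 3 males lay below all females. The log2 fold change was 1.46 ± 1.17 (SE) with all libraries and -1.28 ± 0.44 without both, and neither was called.

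Thus 3 genes were higher and 3 lower in males in the 7 libraries other than pkd1M4 and F2, each without overlap. *apoa1b*, *apoa2* and *apoc1* were the higher ones and *apoeb*, *apobb.1* and *apoc2* the lower ones, and the other 4 overlapped. Over all genes 22.2% were free of overlap in these 7 libraries, 10.9% were higher and 11.3% lower in males. The fit without both libraries called 3 of the 9 tested genes, *apoa1b* and *apoa2* higher and *apoeb* lower, beside 3.72% of 22520 tested genes, 2.13% higher and 1.59% lower. The choice of these 2 libraries was made after their values were seen.

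**Figure D2:**
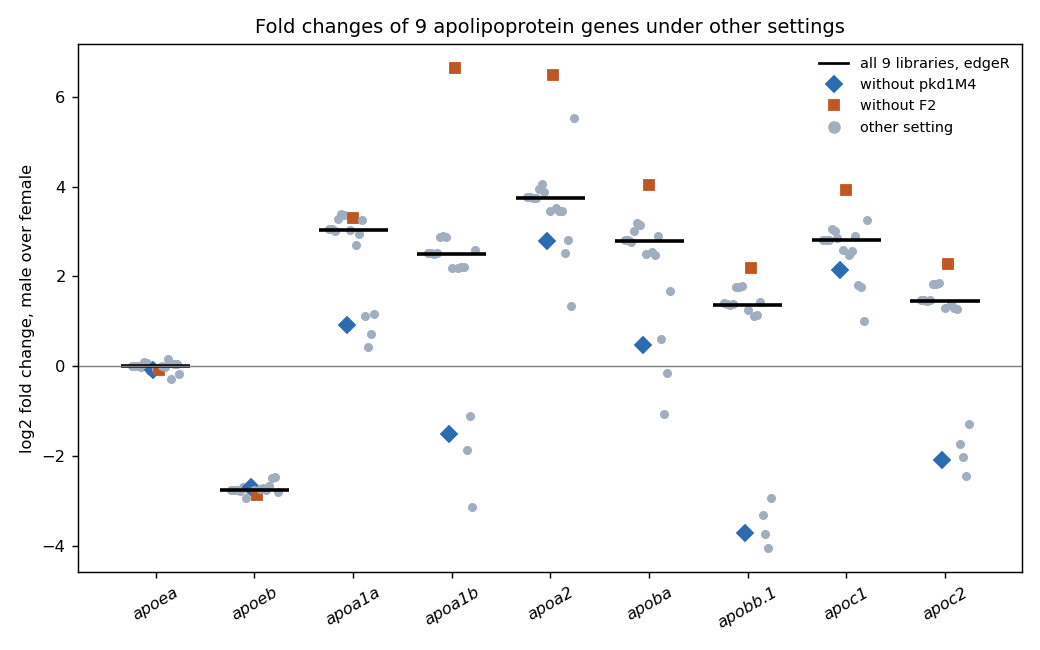
Log2 fold change of male over female kidneys for the 9 tested genes, with all 9 libraries (black line), without pkd1M4 (diamond), without F2 (square) and under every other setting (grey points). *apoeb* and *apoea* stay in a narrow range, *apoa2*, *apoc1* and *apoa1a* stay above 0, and *apoa1b*, *apoba*, *apobb.1* and *apoc2* lie on both sides of 0.

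The 7 genes that the liver makes in mammals, *apoa1a*, *apoa1b*, *apoa2*, *apoba*, *apobb.1*, *apoc1* and *apoc2*, were summed in each library. The sum was 219, 142, 291 and 2460 CPM in M1, M2, pkd1M1 and pkd1M4, against 30.1, 503, 26.3, 23.4 and 55.8 CPM in F1, F2, F3, F4 and F6. pkd1M4 was above every other library, and F2 was above the other 3 males as well as the other females. The ratio of the male to the female mean was 6.09 with all libraries, 1.70 without pkd1M4, 22.9 without F2 and 6.41 without both. Each of the 7 genes was highest in pkd1M4 among males and in F2 among females, a pair of positions held by 4.8% of all tested genes. The genes were chosen with attention to this pattern, so nothing is read from that share.

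A list of 34 liver genes was read in the same libraries. Its highest male library was pkd1M4 for 27 genes and its highest female library was F2 for 23. Both held for 18 of the 30 tested genes (60.0%), beside 4.8% of all tested genes. For *apoa1b*, *apoba*, *apobb.1* and *apoc2*, and for 17 of the 30 tested liver genes, pkd1M4 and F2 were both above all 7 other libraries. This held for 2.22% of all tested genes. The lists were chosen with earlier results of these data known, so nothing is read from these shares. *uox* (urate oxidase) and *itih3b* (an inter-alpha-trypsin inhibitor heavy chain) were at 0 in all 7 other libraries, and had 18.8 and 8.20 CPM in pkd1M4 and 3.78 and 5.22 CPM in F2. Neither passed the filter on low counts. *fabp10a*, also on the list, had 249 CPM in pkd1M4, but its 42.3 CPM in F2 lay below the 65.6 CPM in F6. The part of liver RNA in the levels of the apolipoprotein genes was not tested.

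The whole liver list overlapped between the sexes in its sum, and not all of its genes followed pkd1M4 and F2. Its summed level was between 1275 and 3626 CPM in males and between 645 and 1897 CPM in females. Most of the sum in M1, M2 and pkd1M1 came from 1 gene, *pah*. It gave 1263 of 1773, 861 of 1275 and 1641 of 2379.5 CPM there, and between 59.7 and 311 CPM in females. Beside 3.48% of all tested genes called higher in males, 3 of the list's 30 tested genes were called, all higher. They were *f2* (prothrombin, log2 fold change 3.30, adjusted p = 0.0013), *pah* (phenylalanine hydroxylase, 2.91, adjusted p = 0.00184) and *plg* (plasminogen, 1.77, adjusted p = 0.0148), with edgeR. *pah* had 1180 CPM in pkd1M4 and between 861 and 1641 CPM in the other males, against 121 CPM in F2, so its level did not follow the 2 libraries. The sum of 12 defining liver markers was 99.4, 106, 107 and 1497 CPM in males, against 786, 1199, 400, 261 and 423 CPM in females, with at most 3 of the 12 at 0 in any library. *tfa* (transferrin) had 0.824, 11.4, 5.47 and 741 CPM in males, against 645, 949, 300.2, 176 and 233 CPM in females, where it carried most of that sum. Without pkd1M4 and F2 the liver list held 4 calls among 28 tested genes, beside 3.72% of all tested genes. *f2* and *pah* were higher and *tfa* and *cp* (ceruloplasmin) lower in males. Of the 34 liver genes, 7, 7, 2 and 1 were at 0 in the male libraries and 7, 0, 7, 5 and 3 in the female libraries.

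**Figure D3:**
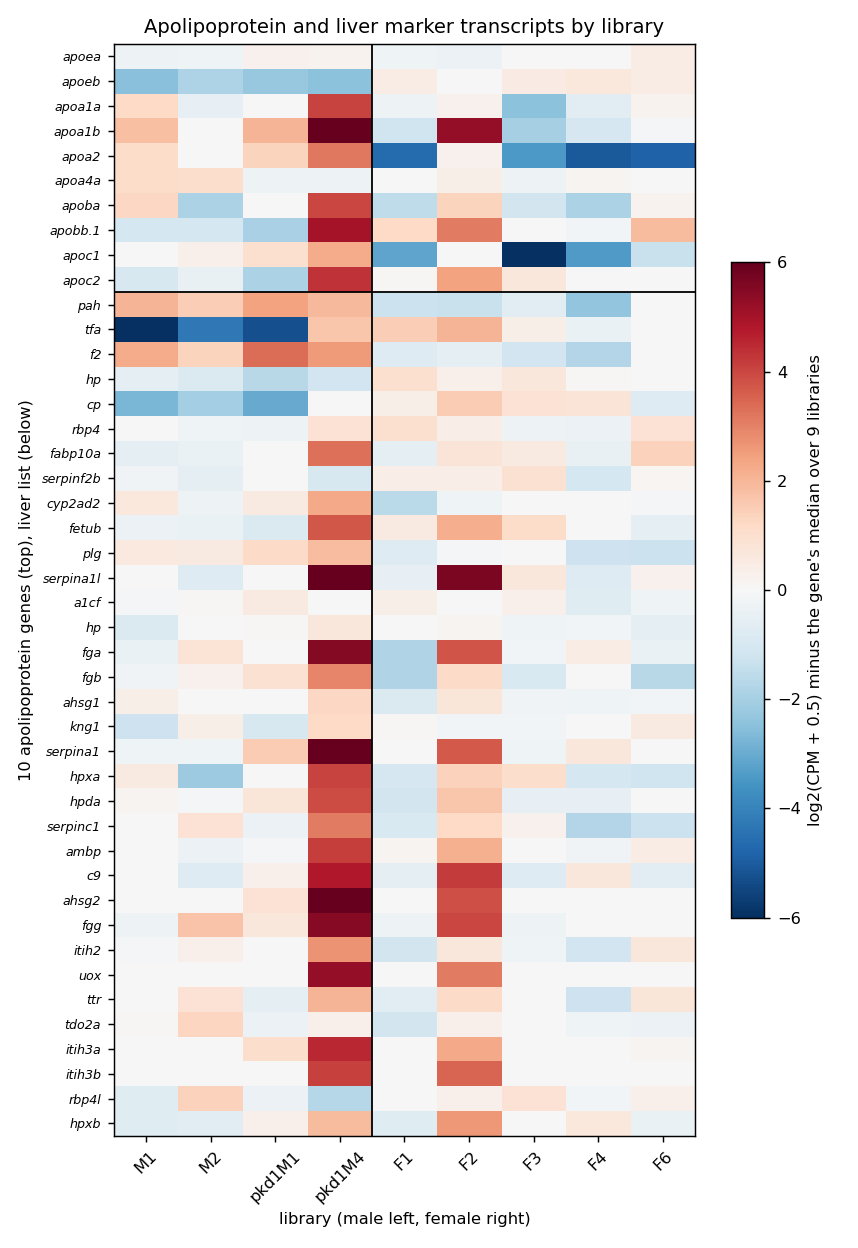
Level of the 10 apolipoprotein genes (top) and the 34 liver genes (below) in each library, male left and female right, as log2(CPM + 0.5) minus the median of the gene over the 9 libraries; colours end at the limits of the scale. The columns of pkd1M4 and F2 are red for *apoa1b*, *apobb.1* and *apoc2* as for *serpina1l*, *fga* and *ahsg2*, while *apoeb* is blue in all 4 males.

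Proportions between the genes were read within each library. The estimated count of *apoa2* over that of *apoa1b* was 4.60, 7.88, 4.66 and 0.385 in the male libraries, against 0.644, 0.233, 3.29, 0.366 and 0.225 in the female libraries. pkd1M4 lay among the females on this ratio and below the other 3 males, and F2 was close to F6. The ratios of *apoc2* and *apobb.1* to *apoa1b*, 0.173 and 0.0727 in pkd1M4, lay within those of the other males. In F2 they were 0.207 and 0.0871, below every other female library. Those other females ran from 1.65 to 12.3 for *apoc2* and from 0.662 to 2.25 for *apobb.1*. The ratio of *apoc1* to *apoa1b* was 0.203 in pkd1M4, below 2.21, 9.80 and 3.68 in M1, M2 and pkd1M1. In F2 it was 0.197, against 2.11, 0.0862, 1.5 and 3.51 in F1, F3, F4 and F6. Across the 7 genes pkd1M4 was between 3.77 and 16.4 times F2, with a median of 4.67, and for the 34 liver genes the median was 2.92.

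Of the 10 genes, 4 lie close together on chromosome 16. With *apoc4* between them, *apoeb*, *apoc1*, *apoa2* and *apoc2* take up 33.9 kb, from 23960744 to 23994642. The starts of *apoc1*, *apoc4*, *apoa2* and *apoc2* are 11.4, 15.2, 18.2 and 23.4 kb from that of *apoeb*. Along this stretch the log2 fold changes were -2.76, 2.81, 1.32, 3.75 and 1.46, so *apoeb* differed in sign from its 4 neighbours. Without pkd1M4 and F2 *apoc2*, at the other end, was below 0 as well. *apoc4* had at most 1.47 CPM in males and 1.33 CPM in females, and its value of 1.32 ± 1.45 (SE) was not called.

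**Figure D4:**
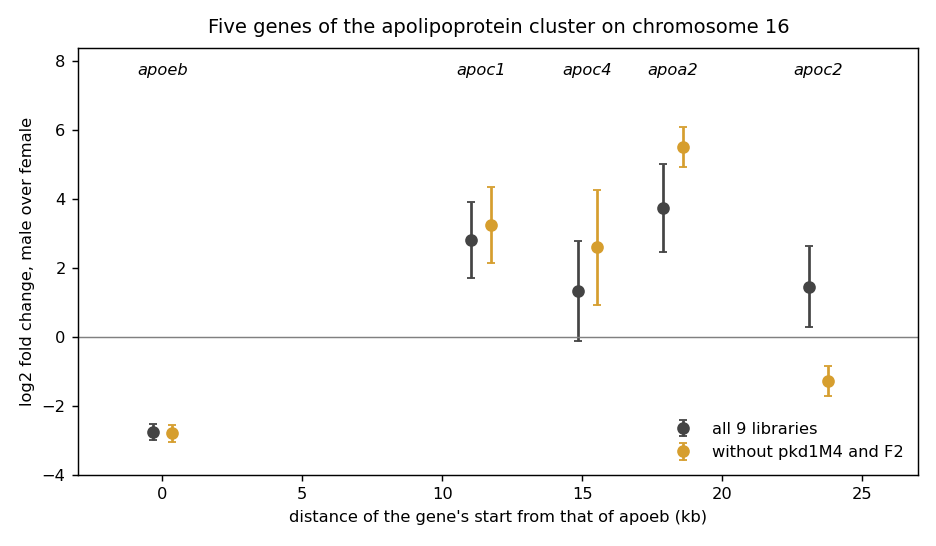
Log2 fold change of male over female kidneys, with bars of 1 SE, for the 5 genes of the chromosome 16 stretch by the distance of their start from that of *apoeb* in kb; black points use all 9 libraries and yellow points leave out pkd1M4 and F2, with each pair set slightly apart. *apoeb* is below 0 in both, *apoc1* and *apoa2* are above 0 in both, and *apoc2* changes side.

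Other genes named as apolipoproteins were read from a list of 15 genes, 9 of them tested. None was called by edgeR, 5 had an unadjusted p under 0.05, and DESeq2 called 1, *clu*. *apol1*, for apolipoprotein L, passed the adjusted p but not the fold threshold, with a log2 fold change of -1.24 (adjusted p = 0.0104, edgeR) and between 16.7 and 27.7 CPM in males and between 31.0 and 69.6 CPM in females. *clu*, for clusterin or apolipoprotein J, had -1.66 ± 0.54 (SE; adjusted p = 0.0683, edgeR), with 5.19 to 10.7 CPM in males, against 69.6 CPM in F1 and between 8.75 and 20.5 CPM in the other females. *apof* had 0.45, *apooa* 0.52 and *apool* 0.27 on the log2 scale, none of them past the adjusted p, and *apooa* and *apool* encode subunits of a mitochondrial membrane complex in spite of their names. pkd1M4 was the highest male library for 8 of the 15 and F2 the highest female library for 5. Both held for 2 of the 9 tested genes (22.2%), beside 4.8% of all tested genes, and nothing is read from this. *apom* and *apobb.2*, which were not tested, had 13.4 and 7.67 CPM in pkd1M4 and 5.33 and 1.55 CPM in F2. Each was at 0 in the other males.

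Of 41 tested genes of the lipoprotein pathway, 4 were called, 2 in each direction. Over all tested genes 6.54% were called, 3.48% higher and 3.06% lower in males. *lpl*, the lipase that *apoc2* serves, had a log2 fold change of 1.51 ± 0.39 (SE; adjusted p = 0.0298, edgeR), with between 22.5 and 43.0 CPM in males and between 5.26 and 23.5 CPM in females, which overlap. *vldlr*, a receptor for apolipoprotein E, had 1.97 ± 0.46 (adjusted p = 0.0184, edgeR), with between 112 and 252 CPM in males and between 22.1 and 106 CPM in females. *lrp1ab*, an endocytic receptor that also takes up particles with apolipoprotein E, had -2.88 ± 0.42 (adjusted p = 0.00199, edgeR), with at most 9.70 CPM in males and at least 21.1 CPM in females. *abca1b*, which loads cholesterol onto apolipoprotein A-I, had -2.05 ± 0.42 (adjusted p = 0.0105, edgeR), with at most 46.8 CPM in males and at least 65.5 CPM in females.

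By role, 1 of 8 remodelling genes, 2 of 21 receptors and adaptors and 1 of 5 export genes were called, beside 6.54% of all tested genes. Of 7 genes for particle assembly, edgeR called 0 and DESeq2 0, and 3 had an unadjusted p under 0.05. *mttp*, which loads lipid onto apolipoprotein B, was among these 7. A further 4 pathway genes passed the adjusted p but not the fold threshold: *lsr*, *amn* and *ldlrb* higher and *stab1* lower in males. Without pkd1M4 and F2 *lrp1ab* alone was called, and without pkd1M4 alone *lrp1ab* and *abca1b*.

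**Figure D5:**
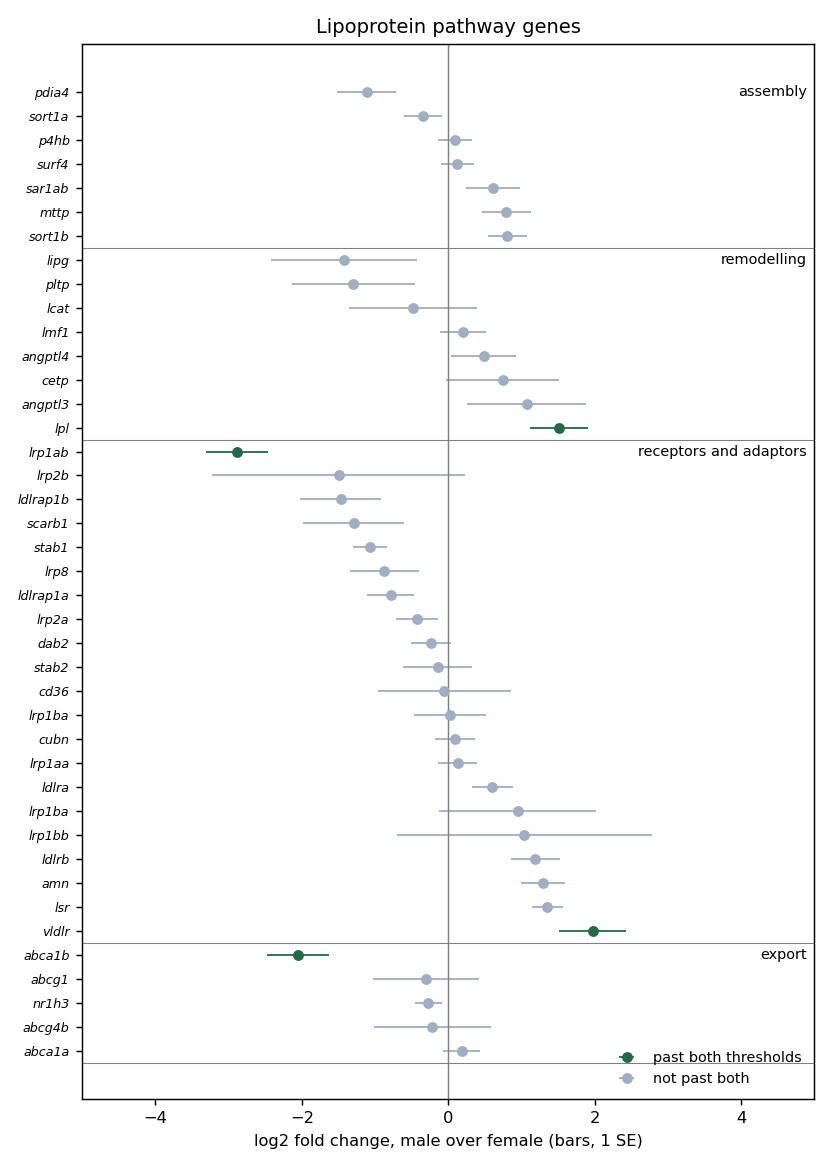
Log2 fold change of male over female kidneys with bars of 1 SE for the 41 tested lipoprotein pathway genes, grouped by role; dark green marks the genes past both thresholds. *lpl* and *vldlr* are called to the right and *lrp1ab* and *abca1b* to the left, and no assembly gene is called.

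Marker lists of other tissues were read in the same libraries, where 3.48% of all tested genes were called higher and 3.06% lower in males. Of 11 intestine genes, 7 were tested and *fabp2*, the intestinal fatty acid binding protein, was called higher in males (log2 fold change 3.67, adjusted p = 0.0211, edgeR). *fabp2* had 46.9 CPM in pkd1M4 and between 6.20 and 18.1 CPM in the other males, against 4.51 CPM in F2 and at most 1.5 CPM in the other females. All 7 tested intestine genes had a log2 fold change above 0. The list summed to between 247 and 412 CPM in males and between 128 and 237 CPM in females, without overlap. Within it *vil1* had between 131 and 267 CPM in males and between 50.3 and 111 CPM in females. Of 13 oocyte genes, 6 of 12 tested were called lower in males, *zp2.2*, *zp2.5* and *zp3a.1* with log2 fold changes of -10.62, -10.48 and -10.53 among them, and the list summed to between 43.4 and 103 CPM in males, against 4584 CPM in F1 and between 69.9 and 199 CPM in the other females. DESeq2 called 0 of the oocyte genes. F1 was not high in the liver-made apolipoprotein genes. In the testis, proximal tubule and kidney tubule lists 1 gene each was called, all higher in males: *odf3b* (1.70), *slc13a3* (1.65) and *atp1a1a.4* (1.71), on the log2 scale. pkd1M4 was the highest male library for 7 of the 8 testis genes. That list summed to 104 CPM in pkd1M4, against 50.5, 47.1 and 42.6 CPM in M1, M2 and pkd1M1. In F2 it summed to 11.9 CPM, the lowest of the females. The blood-forming sum was 10543 CPM in pkd1M4, against 26389, 34775 and 29281 CPM in M1, M2 and pkd1M1. The macrophage sum was also lowest in pkd1M4 among males, at 1194 CPM. The 14 genes of the pancreas list summed to between 167 and 259 CPM in males and between 104 and 351 CPM in females, with F6 and not F2 the highest. Most of this sum was 1 gene, *cpa5*, with between 144 and 240 CPM in males and between 91.7 and 328 CPM in females. Within the list pkd1M4 was the highest male library for 7 of the 14 genes and F2 the highest female library for 1. Vitellogenins, yolk proteins of the liver of laying females, summed to between 5.25 and 15.4 CPM in males and to 37.0, 147, 0.581, 8.91 and 50.1 CPM in F1, F2, F3, F4 and F6, so the sum was highest in F2. By gene, F2 was the highest female library for 4 of 7. *vtg3* was highest in F6, with 33.5 CPM against 11.3 CPM in F2. *vtg5* was at 0 in F2 and between 2.00 and 14.7 CPM in males. The 6 adipocyte genes reached at most 1.56 CPM in males and 2.07 CPM in females, and the 4 glomerulus genes between 116 and 173 CPM in males and between 77.8 and 150 CPM in females. The part of these tissues in the levels of the 10 genes was not tested.

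The genes with the most similar pattern to a member were ranked by Pearson's r of log2(CPM + 0.5) over the 9 libraries, which share their depth and normalization. For *apoeb* these were *glb1*, a lysosomal galactosidase (r = 0.994), *si:ch211-286b5.9* (0.988) and *serpinb1l1* (0.984). *glb1* was between 7.94 and 9.63 CPM in males and between 23.2 and 25.7 CPM in females. For *apoa1b* the first was *hpda* (0.955) and for *apoc2* *fetub* (0.970), both of which are on the liver list. The first for *apoa2* was *pnp4b* (0.977), for *apoc1* *iqca1* (0.983), for *apoa1a* *zgc:112334* (0.984), for *apoba* *pxmp4* (0.962), for *apobb.1* *maml1* (0.951) and for *apoa4a* *ighv10-1* (0.928). With a pseudocount of 2 in place of 0.5, 21 of the 30 genes named by this rule were the same.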

How the data were processed

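RNA libraries of 4 male and 5 female kidney samples from 12-month-old WIK zebrafish were read on both ends. Kallisto, a pseudoaligner that splits shared reads by estimation, gave the authors transcript abundances, which tximport summed to genes. The deposited table thus holds estimated counts, given as whole numbers and not normalized between libraries. The methods name GRCz11 with its Ensembl annotation and the submitters' processing notes name GRCz10, so coordinates are given as the table lists them. The file header and the methods differ on whether values were scaled by transcript length. This limits the shares, ratios and sums that combine the levels of several genes.

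Groups came from the labelled sex. Columns pkd1M1, pkd1M4 and F6 match no single sample title and were used without a replicate number. The number of unused columns of per-sample values was 0. Genes were filtered with filterByExpr, normalized with TMM and tested in R 4.3.3 with edgeR 4.0.16 (quasi-likelihood test), with Benjamini-Hochberg adjustment over all tested genes. The SE of a log2 fold change was derived from this test, as its absolute value over the square root of the F statistic. CPM was computed from the estimated counts and the TMM library sizes, and a pseudocount of 0.5 CPM was used on the log2 scale. The fit was tested on simulated data.

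The members and lists were chosen with earlier results of these data known. Named beside the members were, in each list and direction, the 3 called genes with the smallest p, other apolipoproteins of at least 10 CPM on average, and the 3 genes most alike each member. Further genes were named after their values were seen, among them *mfap4*, *irf8*, *slc7a7*, *marco*, *lgals3a*, *uox*, *itih3b*, *tfa* and *cp*.

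Alternatives were DESeq2 1.42.0 (Wald test), RLE size factors, a filter of at least 10 counts in every library or none at all, leaving out single libraries or the pkd1-named ones, the replicate number as a block, and no fold threshold. Leaving out pkd1M4 and F2 together, and fitting the 4 block libraries without the block, were chosen after seeing the data. Plots were made in Python 3.11.15 with matplotlib 3.10.9. Protein and promoter sequences were not used here. The genes most alike *apoea* are not reported here.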

Additional observations from a re-analysis of the deposited data

Results flagged for a closer look

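Levels within a sex were read for a library whose gap to its nearest neighbour, as a share of the range of the sex, exceeded Dixon's critical value. Of 22 groups, 10 held such a library. Chance flags about 5% of independent groups, but the genes were chosen with attention to single high libraries and the sums repeat single genes, so nothing is read from that count. In every case it was pkd1M4 among males or F2 among females. pkd1M4 stood apart with 45.7 CPM of *apoa1a*, 1300.2 CPM of *apoa1b*, 29.0 CPM of *apoba*, 94.6 CPM of *apobb.1*, 225 CPM of *apoc2* and 2460 CPM summed over the 7 liver-made genes. F2 stood apart with 288 CPM of *apoa1b*, 67.0 CPM of *apoa2*, 59.7 CPM of *apoc2* and 503 CPM summed over the 7 genes.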

How the results depend on the processing

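The call of *apoeb* lower in males held in 16 of 17 other settings. The members called numbered 1 with all libraries, 3 with DESeq2, 2 with at least 10 counts in every library, between 1 and 3 with each library left out (3 without F2 and 2 without pkd1M4), 3 without pkd1M4 and F2, and 0 in M1, M2, F1 and F2 fitted without the block, where 10 were tested. For the other apolipoprotein genes the count of 0 became 1 with DESeq2, with at least 10 counts in every library and without the fold threshold, 0 to 1 with each library left out, and 2 with the replicate block. The pathway count of 4 became 1 without the pkd1-named libraries, 1 without pkd1M4 and F2, 2 in the 4 libraries without the block, 8 without the fold threshold and 2 to 4 with each library left out. The liver count of 3 became 1 in those 4 libraries and 3 to 5 with each library left out, and was 5 without F6. The macrophage count of 5 became 2 without the pkd1-named libraries, 3 in the 4 libraries without the block, 11 without the fold threshold and 4 to 6 with each library left out. Markers of other tissues numbered 9, and 5 with DESeq2, 5 with at least 10 counts in every library, 0 without the pkd1-named libraries, 2 in the 4 libraries without the block, 1 without pkd1M4 and F2 and 0 to 13 with each library left out. All called genes numbered 1448, and 635 without the pkd1-named libraries, 355 in the 4 libraries without the block, 837 without pkd1M4 and F2, 2928 without the fold threshold and 1086 to 1707 with each library left out. The male to female ratio of the summed liver-made genes was 6.09 and lay between 1.70 and 22.9 with each library left out. The share of *apoa1a* in its pair in males was 11.5% as the mean of libraries and 3.86% from summed values, where pkd1M4 weighs most. In females it was 19.4% as the mean of libraries and 2.71% from summed values, where F2 weighs most. The order of the sexes thus changed with the measure. Where fewer libraries or another filter changed a count, the cause was not tested beyond that construction.

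The replicate number as a block could be fitted to M1, M2, F1 and F2 alone. Deviations of libraries with the same number had a correlation of -0.0003, and the labels tie the number to no shared fish or batch, so the number was not taken as a pairing. With the replicate block 859 genes were called and 1 of the members, *apoeb*, with a log2 fold change of -2.49. The fits without pkd1M4 and F2, and of the 4 libraries without the block, were chosen after seeing the data. Reads that paralogs may share, the low counts of *apoa4a* and *apoba*, and the small number of libraries limit these values.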
